A study of Ambystoma mexicanum with 60 samples.

Results

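The RNAs of 8 symbols that lie at the vegetal pole of the axolotl egg (*Ambystoma mexicanum*) were followed through cleavage. They are not among the germ-line RNAs compared below, and whether any of them has a role in the germ line was not examined. They were KIAA1324L, GNG7, SULF1, EFNB1, HMMR, LRP1, SH3BP4 and ANKRD35, and a transcript was a member when the human symbol of its ortholog was one of these 8. The ortholog table held 23 such transcripts, and 21 of them were among the 28909 transcripts measured. The other 2, of EFNB1 and SULF1, were not analysed here. The symbols were chosen by their measured excess in the vegetal section of these same embryos, so their levels and shares in that section are given as a description, with no test. The totals per embryo, which are mostly made of that section, are a description too. The levels in the other sections were tested between stages. An excess in the vegetal section is measured against them, so low egg levels there may have entered the choice. These tests may therefore lean towards a later rise.

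Embryos from natural matings were frozen at the fertilized egg (1-cell), 4-cell, 64-cell and 1K-cell stages, 3 embryos per stage, all of them untreated. Each was cut along the animal-vegetal axis into 5 sections, from A (the animal tip) through B, C and D to E (the vegetal tip), and the RNA of each section was sequenced. Section D of 1-cell replicate 3, which the labels call an outlier, was not analysed here, which left 59 libraries. The embryos came from 2 pairs of parents in separate experiments. Because the labels do not tie embryos to parents, parentage cannot be told apart from embryo. It is also not known whether each stage held embryos of each pair. A difference of parents or experiment therefore cannot be told apart from a difference between stages.

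Before the embryo switches on its own genes, it lives on RNA that the mother stored in the egg. In the frog, some of these RNAs are carried to the vegetal cortex during oogenesis, where they include germ plasm RNAs and determinants of the germ layers. A vegetal level can fall by degradation of the RNA or by its movement away from the pole, which levels per section do not separate.

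The libraries held between 1546418 and 6001350 counts. Every library was made from the same amount of RNA, so a normalized count is a level per unit of RNA and not per section. A change in the amount of other RNA in a section cannot be told apart from a change of the transcript itself. Shares over sections and totals per embryo add these levels with equal weight, so they are no amounts of RNA. The library of section E of 4-cell replicate 2 was the smallest, and 7 of the 8 leading transcripts were lowest there among the E libraries of that stage. None of the 14 marker symbols of ovarian follicle and blood cells matched a measured transcript, so the level of RNA from those cells was not tested.

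The leading transcript of a symbol is the one with the largest mean count over the libraries, before normalization. All 8 leading transcripts were highest in section E at every stage. At the 1-cell stage, between 68.4% and 94.1% of the normalized counts over the 5 sections lay in E, as means of 2 embryos. At the 1K-cell stage, the share was between 43.1% and 67.9%, as means of 3 embryos. The median over the 8 transcripts went from 86.5% ± 4.7 (SD, n = 2) at the 1-cell stage to 75.5% ± 4.6 (SD, n = 3) at the 4-cell stage, 68.3% ± 6.9 (SD, n = 3) at the 64-cell stage and 62.0% ± 2.2 (SD, n = 3) at the 1K-cell stage.

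The leading transcripts are first described by their level in E, in the order of their roles. EFNB1 (AMEXTC_0340000008542) encodes a membrane-bound ephrin ligand that binds Eph receptors on the neighbouring cell. Its normalized counts in E were 19283, 6357 and 11548 in the fertilized eggs, and 5972, 1503 and 3232 in the 4-cell embryos. In the 64-cell embryos E held 2148, 3792 and 4708 counts, and in the 1K-cell embryos 2798, 1588 and 2214. All 9 later embryos lay below all 3 fertilized eggs, and the mean level at the 1K-cell stage was 17.7% ± 6.1 (SE, n = 3 per stage) of the 1-cell level.

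SULF1 (leading transcript AMEXTC_0340000156338) encodes an extracellular enzyme that removes sulfate groups from heparan sulfate and so tunes how growth factors bind it. Its counts in E were 802, 712 and 1183 in the fertilized eggs and 911, 665 and 686 at the 1K-cell stage. These groups overlapped, and the mean at the 1K-cell stage was 83.9% ± 16.1 (SE, n = 3 per stage) of the 1-cell level.

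LRP1 (AMEXTC_0340000218103) encodes a large endocytic receptor of the LDL receptor family. The counts in E were 24180, 13194 and 20156 in the fertilized eggs, and 11665, 2569 and 5469 in the 4-cell embryos. The 64-cell embryos had 3606, 6737 and 9398 counts in E, and in the 1K-cell embryos 6387, 3584 and 4662. The mean fell to 34.2% ± 15.1 (SE, n = 3 per stage) of the 1-cell level at the 4-cell stage and stood at 25.4% ± 6.0 at the 1K-cell stage, with no later embryo reaching the lowest fertilized egg.

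HMMR (leading transcript AMEXTC_0340000167823) encodes a protein that binds hyaluronan and, inside the cell, microtubules of the spindle. Its counts in E were 11640, 8973 and 11668 in the fertilized eggs, and 6467, 4009 and 7763 in the 4-cell embryos. In the 64-cell embryos E held 4728, 10459 and 7138 counts, and in the 1K-cell embryos 4619, 4537 and 5316. One 64-cell embryo reached into the range of the fertilized eggs, whereas the 4-cell and 1K-cell embryos did not.

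KIAA1324L (leading transcript AMEXTC_0340000015176), also called ELAPOR2, encodes a membrane protein. The counts in E were 4151, 1965 and 2803 in the fertilized eggs, and 1768, 719 and 1497 in the 4-cell embryos. At 64 cells the counts in E were 1129, 1697 and 1691, and in the 1K-cell embryos 1061, 898 and 1032. The 1K-cell level was 33.5% ± 7.4 (SE, n = 3 per stage) of the 1-cell level, and no later embryo overlapped the eggs.

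GNG7 (AMEXTC_0340000189053) encodes a gamma subunit of the heterotrimeric G proteins that relay signals from receptors. Its counts in E were 12083, 5281 and 7833 in the fertilized eggs, and 2670, 1128 and 2415 in the 4-cell embryos. In the 64-cell embryos E held 1992, 2843 and 2684 counts, and in the 1K-cell embryos 1936, 1424 and 1739. The level was already at 24.7% ± 8.1 (SE, n = 3 per stage) of the 1-cell level in 4-cell embryos and was 20.2% ± 5.1 in 1K-cell embryos.

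SH3BP4 (leading transcript AMEXTC_0340000040620) encodes an adaptor that acts in endocytosis of the transferrin receptor. The counts in E were 3091, 1321 and 2264 in the fertilized eggs, and 1146, 323 and 583 in the 4-cell embryos. The E sections of 64-cell embryos held 585, 613 and 656 counts, and in the 1K-cell embryos 307, 311 and 399. The 1K-cell level, 15.2% ± 3.8 (SE, n = 3 per stage) of the 1-cell level, was the lowest among the leading transcripts.

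ANKRD35 (leading transcript AMEXTC_0340000001448) encodes a protein with ankyrin repeats. Its counts in E were 1340, 929 and 1037 in the fertilized eggs, and 328, 227 and 198 in the 4-cell embryos. In the 64-cell embryos E held 176, 298 and 333 counts, and in the 1K-cell embryos 282, 161 and 212. As for the other leading transcripts apart from SULF1, most of the difference lay before the 4-cell stage. At that stage 22.8% ± 4.4 (SE, n = 3 per stage) of the 1-cell level of ANKRD35 was left.

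**Figure D1:**
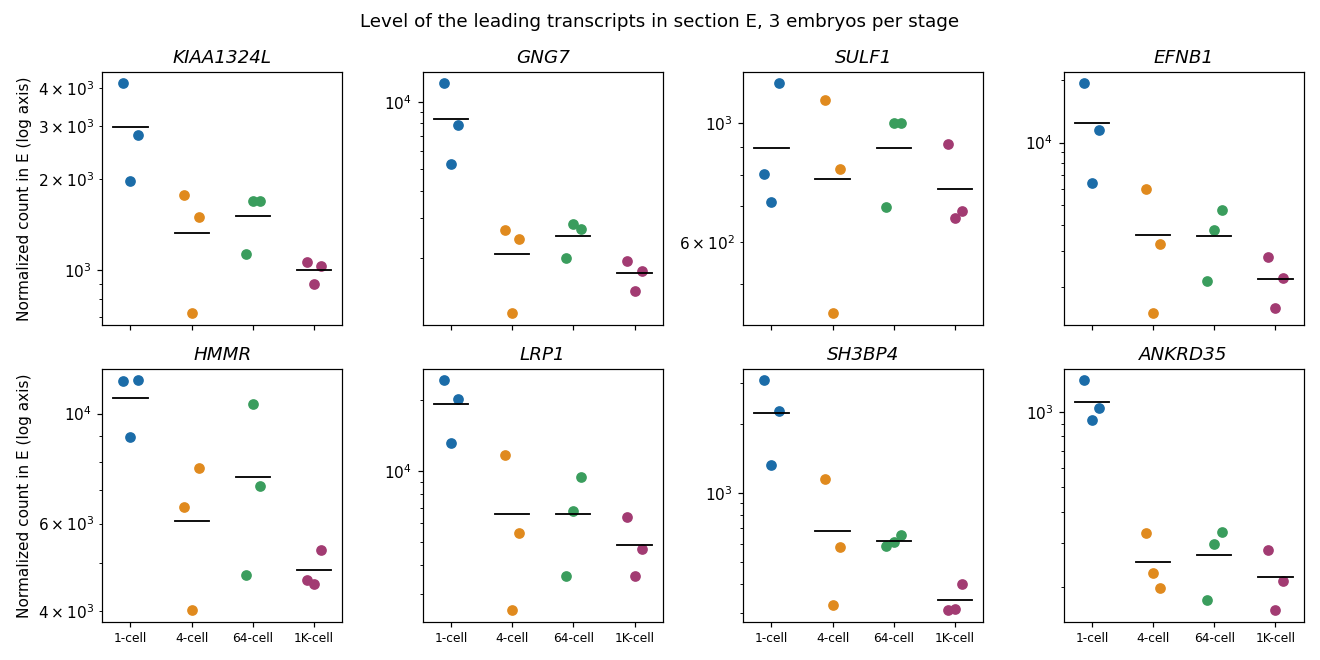
Normalized counts in section E (log axis, a different range in each panel) of the leading transcript of each symbol, by stage. Each point is an embryo and the bar is the mean of 3. The leading transcript of SULF1 overlaps the range of the fertilized eggs at the 4-cell and the 1K-cell stage. Those of the other symbols have no 4-cell or 1K-cell embryo within that range. How many of all transcripts have no such overlap was not counted.

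The leading transcripts were ordered by how much of the 1-cell level in E remained at the 1K-cell stage. From least to most, they were those of SH3BP4, EFNB1, ANKRD35, GNG7, LRP1, KIAA1324L, HMMR and SULF1. A leading transcript is picked over all stages, which favours one whose level lasts, so this is no order of symbols. In the eggs another transcript held more of the counts in E for HMMR (56.9%) and SULF1 (35.2%). Summed over transcripts, the mean level in E went from 24986 to 6663 for HMMR, 4191 to 1534 for SULF1 and 3302 to 1001 for KIAA1324L. The neighbours in this order were compared by the log2 ratio of their levels in the same E library, in 3 eggs against 3 1K-cell embryos, a design whose smallest exact permutation p (two-sided) is 0.10. In 6 of the 7 neighbouring pairs the ratios of eggs and 1K-cell embryos overlapped, so their order is not separated from the spread between embryos. Only for the leading transcripts of HMMR and SULF1 did the ratios not overlap. The order was made from these same levels in E, and 7 pairs were looked at. This pair is therefore a description and is not called separated. The log2 ratio of HMMR to SULF1 was between 3.30 and 3.86 in the eggs and between 2.34 and 2.95 in the 1K-cell embryos.

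At the 4-cell stage, a median of 32.5% of the 1-cell level in E was left over the 8 leading transcripts, and 41.8% without the E library of 4-cell replicate 2. When that library was left out, EFNB1 went from 28.8% to 37.1%, LRP1 from 34.2% to 44.7% and GNG7 from 24.7% to 30.3%. SH3BP4 went from 30.7% to 38.9%, KIAA1324L from 44.7% to 54.9%, HMMR from 56.5% to 66.1% and ANKRD35 from 22.8% to 23.8%. The level of SULF1 was then 106.8% of the 1-cell level, against 87.6% with it.

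The share held by section D was higher at the later stages for 7 of the 8 leading transcripts, as a description of the same profiles. It went from 4.25% ± 0.085 (SD, n = 2) in the eggs to 25.7% ± 2.8 (SD, n = 3) in the 1K-cell embryos for HMMR, and from 5.13% ± 2.4 to 25.0% ± 3.4 for GNG7. For KIAA1324L it went from 7.45% ± 3.8 to 26.2% ± 1.3. For SULF1 it was 25.7% ± 4.3 in the eggs and 25.5% ± 3.0 in the 1K-cell embryos.

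**Figure D2:**
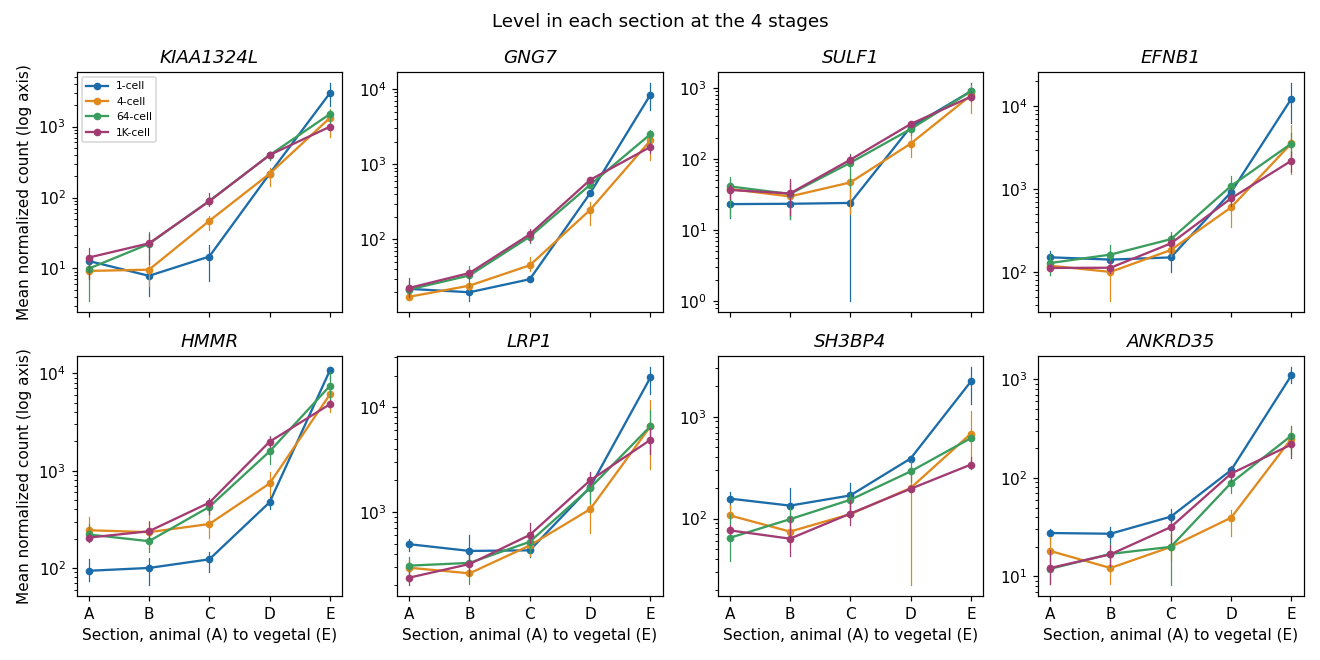
Mean normalized counts (log axis) of the leading transcripts in sections A to E at the 4 stages, with vertical lines from the lowest to the highest embryo and a value of 0 drawn at 1. All 8 profiles rise towards E at every stage, and the profiles of KIAA1324L, GNG7 and HMMR lie higher in C at the 1K-cell stage than at the 1-cell stage.

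A fall of the share in E can come from a lower level in E, a higher level elsewhere or both, so the levels outside E were tested between stages with edgeR's quasi-likelihood test on each section, adjusted over all 28909 transcripts by the Benjamini-Hochberg method, with a call at an adjusted p under 0.01. In section C, 3 of the 21 transcripts were higher at the 1K-cell than at the 1-cell stage (3.27% of all transcripts were called higher in C), and all 3 were leading transcripts. The egg levels in C may have entered the choice of the symbols, which could favour a rise. No member was called lower there (1.49% of all transcripts), where 0 of 21 had an unadjusted p under 0.05 and DESeq2 called 0. Here and below, the shares of all transcripts with such a p or called by DESeq2 are not given. Nothing is therefore read from these counts.

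KIAA1324L rose most among them. Its counts in C were 21.3, 6.61 and 16.3 in the eggs and 115, 75.0 and 76.7 in the 1K-cell embryos, which did not overlap. The log2 difference was 2.56 ± 0.38 (SE), with an adjusted p of 0.00167 in edgeR. GNG7 in C had 28.4, 28.7 and 31.8 counts in the eggs and 138, 121 and 92.7 in the 1K-cell embryos, a log2 difference of 1.98 ± 0.25 (SE) with an adjusted p of 0.000638 in edgeR. HMMR in C had 132, 91.5 and 144 counts in the eggs and 355, 528 and 524 in the 1K-cell embryos, a log2 difference of 1.93 ± 0.27 (SE) with an adjusted p of 0.00112 in edgeR. All 3 calls held when any of the 12 embryos was left out. The levels in C of the other leading transcripts did not pass, with log2 differences between -0.60 (SH3BP4) and 2.05 (SULF1). The SULF1 value had an SE of 0.95, since a fertilized egg had 0 counts in C.

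In section D, HMMR (AMEXTC_0340000167823) was the member called higher at the 1K-cell stage (2.33% of all transcripts). It had 542 and 405 counts in D of the 2 eggs and 1733, 2236 and 1992 in the 1K-cell embryos. The log2 difference was 2.07 ± 0.35 (SE), with an adjusted p of 0.00629 in edgeR. That call was lost without 6 of the 11 embryos in turn, with log2 differences between 1.87 and 2.30, and the adjusted p reached 0.0526. At the 4-cell stage 1 member was lower in D (0.481% of all transcripts), the SULF1 transcript AMEXTC_0340000047228, at a log2 difference of -3.03 with an adjusted p of 0.000269 in edgeR. It had 298 and 288 counts in the eggs and 44.1, 30.8 and 31.6 in the 4-cell embryos. This transcript was also the member called lower in D at the 1K-cell stage (1.06% of all transcripts), at -1.51 with an adjusted p of 0.00516 in edgeR, and that second call was lost without 4 of the 11 embryos in turn.

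In section A, LRP1 was the member called lower at the 1K-cell stage (1.34% of all transcripts). Its counts in A were 548, 506 and 426 in the eggs and 240, 269 and 202 in the 1K-cell embryos, with no overlap. The log2 difference was -1.06 ± 0.21 (SE) with an adjusted p of 0.00922 in edgeR, close to the threshold, and the call was lost without 9 of the 12 embryos in turn. Section A had no member called higher in edgeR (2.81% of all transcripts, with 1 at an unadjusted p under 0.05 and 1 in DESeq2). In section B no member was called in edgeR at the 1K-cell stage, where 1.27% of all transcripts were lower and 2.77% higher. There 2 members had an unadjusted p under 0.05 for lower and 4 for higher, and DESeq2 called 1 in each direction.

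At the 4-cell stage no member was called in edgeR in A, B or C, where 1.21%, 1.17% and 1.21% of all transcripts were lower and 1.58%, 1.5% and 1.65% were higher. At an unadjusted p under 0.05, 2, 5 and 4 members were lower and 1, 2 and 6 higher in A, B and C. DESeq2 called 1, 2 and 0 lower and 1, 1 and 3 higher. These counts again have no share of all transcripts beside them, and nothing is read from them. In D no member was higher (1.13% of all transcripts), with 0 at an unadjusted p under 0.05 and 0 in DESeq2.

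**Figure D3:**
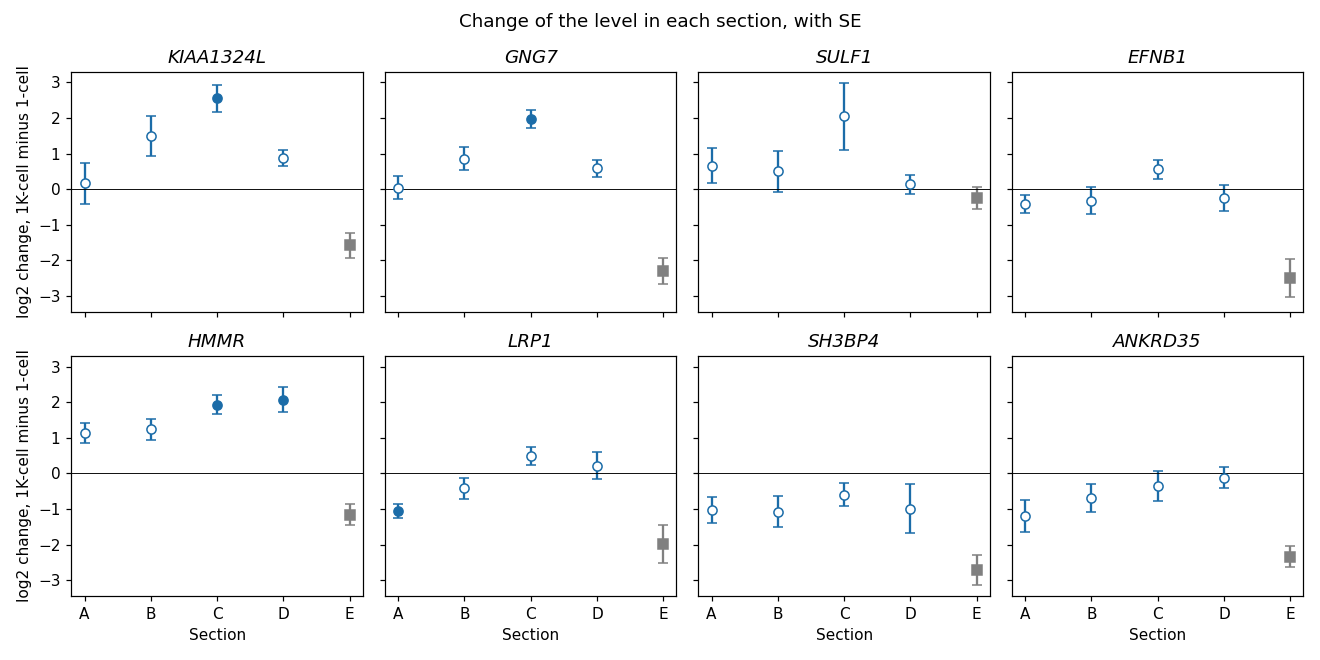
Log2 difference of the level between the 1K-cell and the 1-cell stage in each section for the leading transcripts, with SE. Filled circles passed an adjusted p under 0.01 and open circles did not, and grey squares (section E) carry no test. Section C is 2.56, 1.98 and 1.93 higher for KIAA1324L, GNG7 and HMMR. Section E is lower for all 8, though for SULF1 by less than its SE (-0.26 ± 0.31).

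The total per embryo is the sum of the 5 section levels with equal weight, and not the amount of RNA in the embryo. It was fitted between stages in the 11 embryos with all sections, with 2 at the 1-cell stage. These totals are mostly made of section E, whose level in the same embryos entered the choice of the symbols, so the differences and the number of calls are a description, nothing is read from the calls, and no p is given. At the 4-cell stage 8 of the 21 transcripts were called lower than at the 1-cell stage (4.38% of all transcripts), and at the 1K-cell stage 12 (5.85% of all transcripts). These contrasts share the 1-cell embryos. No member was called higher at either stage (4.06% and 8.52% of all transcripts), where 0 and 1 had an unadjusted p under 0.05 and DESeq2 called 0 and 0. Between the 4-cell and the 64-cell stage and between the 64-cell and the 1K-cell stage no member was called lower in edgeR (0% and 0.0623% of all transcripts). There 0 and 3 members had an unadjusted p under 0.05 for lower, and DESeq2 called 0 and 2 lower. No member was called higher in these contrasts, with 2 and 0 at an unadjusted p under 0.05 and 0 and 0 in DESeq2. The shares of all transcripts called higher are not given here.

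ANKRD35 was lower in all 3 of its transcripts. The leading one had totals of 1555 and 1152 in the eggs, 425, 314 and 282 in the 4-cell embryos and 462, 315 and 391 in the 1K-cell embryos. The log2 difference was -1.96 ± 0.25 (SE) at the 4-cell stage and -1.78 ± 0.25 at the 1K-cell stage. GNG7 had totals of 12579 and 5738 in the eggs and of 3041, 1362 and 2812 at the 4-cell stage. The log2 difference was -1.90 ± 0.34 (SE) at the 4-cell stage and -1.86 ± 0.34 at the 1K-cell stage. Both calls were lost without 1-cell replicate 1, at -1.24 and -1.20, where the lone egg is assumed to vary like the other embryos, and with plain sums of counts, at -1.32 and -1.13. The call at the 1K-cell stage was also lost without 1K-cell replicate 2 or 3. EFNB1 was 2.03 lower on the log2 scale at the 1K-cell stage (SE 0.47), a call lost without 8 of the 11 embryos in turn and with plain sums of counts (-1.32), and the difference at the 4-cell stage was -1.61. LRP1 was at -1.31 and -1.42 and the leading transcript of KIAA1324L at -1.01 and -1.10, without a call at either stage. The fall of SH3BP4 in these embryos was known when the symbols were chosen. The log2 differences of its leading transcript, which is among the 12, were -1.38 ± 0.34 (SE) and -1.97 ± 0.35. Its call at the 1K-cell stage was lost without 1-cell replicate 1 (-1.45) and without 1K-cell replicate 2 (-1.90).

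**Figure D4:**
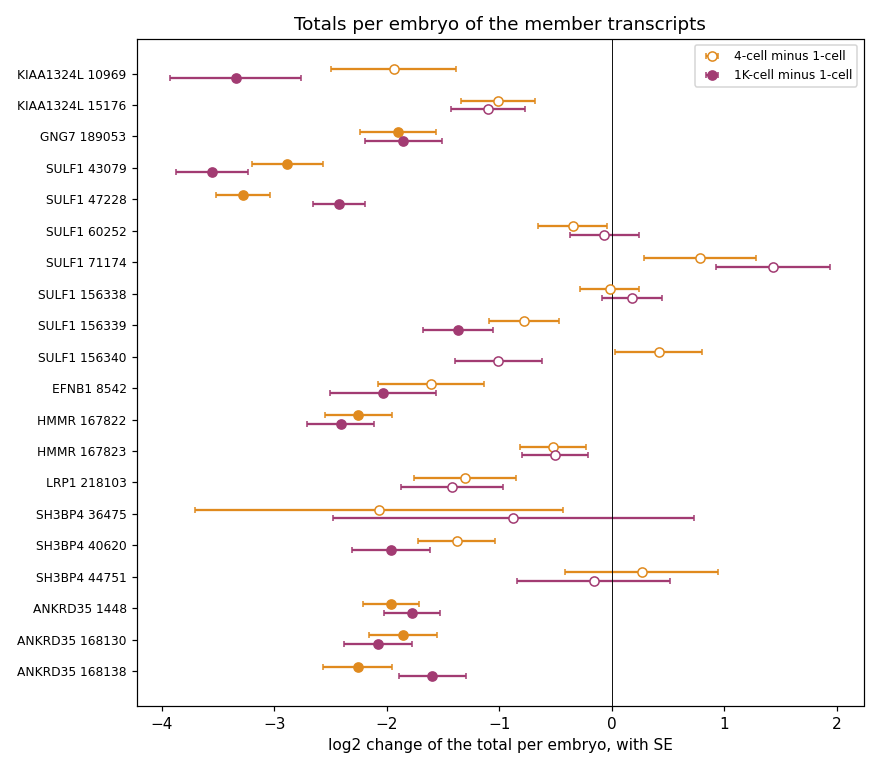
Log2 difference of the total per embryo from the 1-cell stage, with SE, for 20 of the 21 member transcripts, named by symbol and the last digits of the identifier. Filled points passed an adjusted p under 0.01, which is a description for totals. AMEXTC_0340000064072 of KIAA1324L, at 0 in most later libraries, is left out because its fitted difference is no bound. The transcripts of SULF1 spread from -3.55 to 1.44 at the 1K-cell stage, and those of ANKRD35 lie between -2.08 and -1.60. The 1.44 is of AMEXTC_0340000071174, whose totals in the eggs were low (mean 31.9, n = 2).

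The transcripts of the same symbol agreed for ANKRD35 and did not agree for HMMR, SULF1 and KIAA1324L. For ANKRD35, the levels in E at the 1K-cell stage were 19.8% ± 3.9, 16.0% ± 4.0 and 22.2% ± 3.6 (SE, n = 3 per stage) of the 1-cell level for AMEXTC_0340000001448, AMEXTC_0340000168130 and AMEXTC_0340000168138, and the totals of all 3 were called lower at both stages. The call of AMEXTC_0340000168130 at the 4-cell stage was lost without either egg. That of AMEXTC_0340000168138 at the 1K-cell stage was lost with plain sums of counts (-1.07, against -1.60), without 1-cell replicate 1 (-1.32) and without 1K-cell replicate 2 (-1.40). The leading transcript held 48.0% of the symbol's counts in E in the eggs and 48.9% in the 1K-cell embryos. Shares of a symbol's counts are not corrected for transcript length.

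HMMR had 2 transcripts that are both confined mostly to E and that parted between the egg and the 4-cell stage. AMEXTC_0340000167822 had 16374, 11918 and 14384 counts in E of the eggs and 2864, 1797 and 2946 at the 4-cell stage. In the 64-cell embryos it had 1590, 4158 and 2800, and in the 1K-cell embryos 2124, 1434 and 1960, 12.9% ± 1.9 (SE, n = 3 per stage) of the egg level, against 44.8% ± 4.4 for AMEXTC_0340000167823. Its share of the HMMR counts in E was 55.2% to 58.4% in the eggs and 24.0% to 31.5% in the 1K-cell embryos, which did not overlap. The total of AMEXTC_0340000167822 was lower by a log2 difference of -2.26 ± 0.30 (SE) at the 4-cell stage, whereas that of AMEXTC_0340000167823 was -0.53 ± 0.29. The difference between these transcripts was not tested. Reads can be shared between near-identical transcripts, so each value is uncertain and the sum is given beside them. With counts summed per symbol, the total of HMMR was -1.28 ± 0.28 (SE) at the 4-cell stage and -1.31 ± 0.28 at the 1K-cell stage, and its rise in C was 0.90 ± 0.15 (adjusted p = 0.00185 in edgeR).

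SULF1 had 7 transcripts with a wide range. AMEXTC_0340000047228 had 1994, 1034 and 1416 counts in E of the eggs, then 143, 129 and 149 in the 4-cell, 206, 254 and 215 in the 64-cell and 212, 253 and 130 in the 1K-cell embryos. AMEXTC_0340000043079 had 667, 398 and 679 counts in the eggs and 67.6, 62.1 and 65.6 in the 4-cell embryos. It was down to 32.4, 20.6 and 27.2 in the 1K-cell embryos. Neither transcript overlapped the eggs at any later stage. Their totals were lower at the 4-cell stage by log2 differences of -3.28 ± 0.24 and -2.88 ± 0.31 (SE), and both calls held without any of the 11 embryos in turn. The leading transcript AMEXTC_0340000156338 and AMEXTC_0340000060252 had total differences of -0.02 ± 0.26 and -0.35 ± 0.31 (SE) at the 4-cell stage. AMEXTC_0340000156339 was at -1.37 ± 0.31 (SE) at the 1K-cell stage, a call lost without 8 of the 11 embryos in turn, with plain sums of counts (-0.80) and with the replicate block (-1.30). AMEXTC_0340000156340 had 187, 203 and 452 counts in E of the eggs and 82.2, 25.9 and 94.5 in the 1K-cell embryos. AMEXTC_0340000071174 was at 10.8 to 96.0 counts in E of the eggs. In the eggs AMEXTC_0340000047228 held 35.2% of the SULF1 counts in E and the leading transcript 21.7%, and in the 1K-cell embryos these were 13.1% and 48.9%. Summed over the transcripts, the total of SULF1 was -0.96 ± 0.21 (SE) at the 4-cell stage and -0.97 ± 0.21 at the 1K-cell stage, and in C the sum was 1.03 ± 0.20 higher at the 1K-cell stage (adjusted p = 0.00399 in edgeR).

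**Figure D5:**
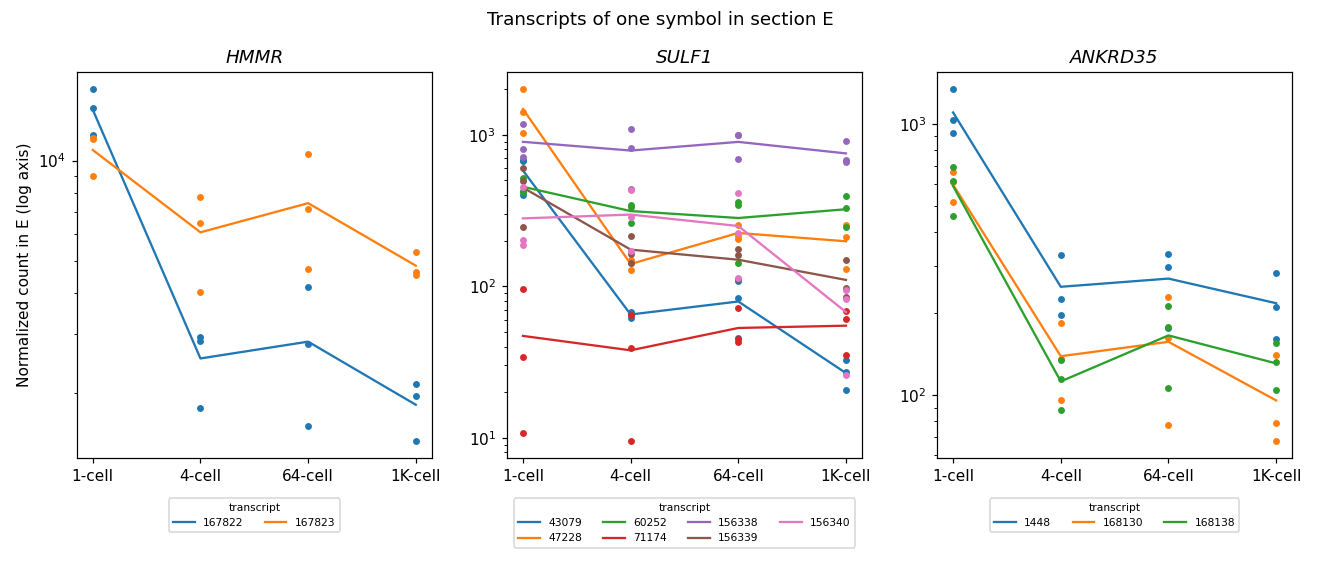
Normalized counts in section E (log axis) of each transcript of HMMR, SULF1 and ANKRD35, named by the last digits of the identifier. Points are embryos and lines join the means of 3 embryos. The lines of ANKRD35 run side by side, and those of HMMR cross between the 1-cell and the 4-cell stage. Those of SULF1 go from 4.60% to 116.8% of the egg level at the 1K-cell stage. The upper end is AMEXTC_0340000071174, which had few and variable counts in E of the eggs (47.0 ± 44.0, SD, n = 3).

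KIAA1324L had 3 transcripts. AMEXTC_0340000064072 had 214, 108 and 234 counts in E of the eggs and 0 in E of all 9 later embryos. Set against a floor of 3 counts over the 3 libraries of a stage, its level in E was at least 125-fold lower at the 4-cell stage and at least 170-fold lower at the 1K-cell stage. AMEXTC_0340000010969 had 63.3, 172 and 195 counts in E of the eggs and 0, 9.16 and 4.29 at the 1K-cell stage. Both totals were called lower at the 1K-cell stage. The call of AMEXTC_0340000064072 was lost with the replicate block and without 1-cell replicate 1, and that of AMEXTC_0340000010969 without 1-cell replicate 2 (-2.60, against -3.34) and without 1K-cell replicate 2 (-3.31). Together these transcripts held a small part of the symbol in the eggs, where the leading one had 89.3% of the counts in E. Summed over the transcripts, the total of KIAA1324L was -1.12 ± 0.30 (SE) at the 4-cell stage and -1.23 ± 0.30 at the 1K-cell stage.

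SH3BP4 also had 3 transcripts. AMEXTC_0340000036475 was at 171 counts in E of a single egg and 0 in the other 2, and at 0 in E of 6 of the 9 later embryos. AMEXTC_0340000044751 had 7.91, 104 and 22.7 counts in E of the eggs and 20.2, 16.8 and 37.2 at the 1K-cell stage, which overlapped. As stage means, 34.7% to 44.8% of its normalized counts over the 5 sections lay in E, with an SD between 18.3 and 32.0 percentage points. The leading transcript held 95.4% of the SH3BP4 counts in E in the eggs.

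When the counts of each symbol were summed, 4 of the 8 symbols were called lower in total at the 4-cell stage (4.23% of all 21858 symbols and unnamed transcripts) and 7 at the 1K-cell stage (6.05%), with LRP1 the exception (-1.43). These totals are a description because they are mostly made of E, and the 7 include SH3BP4. In C, 4 of the 8 were higher at the 1K-cell stage (5.13%), with SULF1 joining KIAA1324L, GNG7 and HMMR. In A, LRP1 and ANKRD35 were lower (1.69%), and in D no symbol was called at the 1K-cell stage.

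The 8 symbols were set beside other genes of the pathways they belong to, in 6 lists of 124 measured transcripts, with 1 transcript per symbol and the members left out. At the 1-cell stage 11 of the 124 were called vegetal (5.59% of all transcripts), by the F test of section with an embryo term. They were 5 of 17 in the LDL receptor family, 2 of 19 for heterotrimeric G proteins, and 1 each of 23 for heparan sulfate, of 13 for ephrins and Eph receptors, of 24 for hyaluronan and spindle assembly and of 28 for endocytosis. The median vegetal minus animal log2 difference of the lists lay between -0.15 and 0.31, against -0.04 over all transcripts. The totals of 9 of the 124 were called lower and of 2 higher at the 1K-cell stage (5.85% and 8.52% of all transcripts).

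Several other genes of these lists were vegetal in the eggs. EFNA4, an ephrin ligand anchored to the membrane by a lipid, had a mean of 2.78 counts in A and 612 in E of the eggs, a vegetal minus animal log2 difference of 5.23 ± 0.63 (SE, adjusted p = 0.000113 in edgeR). GNA15, an alpha subunit of a G protein, had 22.4 and 1279 counts in A and E and a log2 difference of 3.51 ± 0.19 (SE, adjusted p = 1.82e-07 in edgeR), and AP2S1, a small subunit of the clathrin adaptor, had 108 and 1353 counts and 2.55 ± 0.12 (SE, adjusted p = 2.33e-07 in edgeR). The genes LRP10, LRPAP1, GNAL, GLCE and NUMA1 were vegetal with smaller log2 differences, between 1.02 and 1.49. The calls of GNA15 and AP2S1 held without each egg in turn, that of EFNA4 was lost without 2 of the 3 eggs, and those of LRP10, LRPAP1, GNAL, GLCE and NUMA1 without 1 to 3 of them. BRCA1, AURKA and CLTC were called animal, with log2 differences between -0.42 and -0.24, and all 3 calls were lost without each egg in turn, with adjusted p between 0.0839 and 0.202 in edgeR. Those of BRCA1 and CLTC were also lost without the embryo term.

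The profiles were compared with those of other transcripts by the Pearson r over the 20 section-by-stage means of log2(normalized count + 1), against the median profile of the 8 leading transcripts. Among 9419 other transcripts with a symbol and a mean count of at least 50, the most alike included NRBP2, SNX19, DENND5B and TRAM2, each with an r of 0.994. The 20 means share libraries and are not independent, and the r is a description. The members' own r with their median was between 0.935 (SH3BP4) and 0.994 (EFNB1). NRBP2 went from a mean of 5118 counts in E of the eggs to 1320 at the 1K-cell stage, and SNX19 from 7374 to 1427.

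The germ-line RNAs GRIP2, DND1, NANOS1, RBPMS2 and TFAP2C share the vegetal pole. Of their 10 measured transcripts, only the leading one of each symbol was used, a choice that favours a level that lasts. These had between 16.0% and 29.3% of their egg level in E at the 1K-cell stage, against 15.2% to 83.9% for the 8 leading member transcripts. Their shares in E went from between 65.1% and 98.2% in the eggs to between 27.7% and 77.8% at the 1K-cell stage, counted from the mean levels of each section. The ranges of the germ-line RNAs and of the members overlapped, and the difference between them was not tested.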

How the data were processed

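RNA was measured in sections A to E of embryos at 4 stages, from ribosomal-RNA-depleted libraries of 100 ng total RNA. The deposited estimated counts per transcript were made by the authors with Trimmomatic trimming and kallisto 0.43.1 against an axolotl transcriptome, without pooling, and are whole numbers. The deposited totals per embryo and the normalized tables were not used here, and the alternative planned on the deposited totals was run on plain sums of the section counts instead. The deposited ortholog table gives the human symbols. Transcripts with no library above 30 counts were left out by the authors (lowest maximum 31).

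Counts were divided by median-of-ratios size factors (0.379 to 1.74) over the 59 libraries to give normalized counts. Totals per embryo were the rounded sums of 5 sections. Tests were edgeR 4.0.16 quasi-likelihood fits with Benjamini-Hochberg adjustment, and a call required an adjusted p under 0.01 and, for totals and for sections within a stage, a total averaging more than 20 in some stage. DESeq2 1.42.0 was an alternative, as were TMM factors, edgeR's expression filter, plain sums of the counts in place of normalized sums, sections A, B, C and E alone, a replicate term, leaving out each embryo, and sums per symbol, which were added after the data were seen. Software was R 4.3.3, Python 3.11.15, NumPy 2.4.6 and pandas 2.3.3.

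The replicate numbers of different stages are different embryos: same-numbered embryos deviated from their stage means with correlations between -0.143 and 0.127, so the numbers were not treated as pairs. Sections of the same embryo were paired by an embryo term. Whether embryos are from separate clutches is not stated per embryo, so p-values measure the spread between these embryos.

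On simulated data for the total at the 1K-cell minus the 1-cell stage, with 28909 transcripts, 23.8%, 67.2% and 91.9% of transcripts changed 2-fold, 4-fold and 8-fold were recovered. For section D in the same contrast and number of transcripts, 5.80%, 52.1% and 70.0% were recovered.

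The members and the gene lists were chosen with earlier results of these data known. The named genes are every member transcript, up to 3 called transcripts of each list with the smallest adjusted p at the 1-cell stage, and the 5 transcripts most like the members. Some genes that this rule names are not reported here. Intervals are SD or SE over embryos, as marked.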

Additional observations from a re-analysis of the deposited data

Results flagged for a closer look

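The transcripts named here were lower in section E and higher in another section at the 1K-cell than at the 1-cell stage. The embryos did not overlap in either section. How many of all transcripts have this pattern was not counted, so nothing is read from the number of members. The difference between the log2 changes of the sections was not tested. For the leading transcript of KIAA1324L (AMEXTC_0340000015176), the change in B, C and D exceeded that in E by 3.10, 4.17 and 2.45 on the log2 scale. Its level in B rests on few counts, at 9.91, 9.64 and 4.09 in the eggs and 31.0, 11.6 and 25.3 in the 1K-cell embryos. For GNG7 (AMEXTC_0340000189053) the values for B, C and D were 3.15, 4.29 and 2.90. For HMMR (AMEXTC_0340000167823) they were 2.29, 2.41, 3.09 and 3.23 for A, B, C and D. The other HMMR transcript, AMEXTC_0340000167822, went from means of 199 to 71.4 in A and 222 to 81.9 in B. Summed over the HMMR transcripts, the mean level was 293 and 276 in A and 322 and 320 in B, so the symbol did not rise there. In C the sum went from 346 to 648 and in D from 1131 to 2680. For the SULF1 transcript AMEXTC_0340000060252 the value in C was 5.10, where a fertilized egg had 4.54 counts and the other 2 had 0, so its size rests on few counts.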

How the results depend on the processing

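Of the 21 member transcripts, 8 were called lower in total at the 4-cell stage (5 to 9 with each embryo left out) and 12 at the 1K-cell stage (6 to 13). The loss came mainly without 1-cell replicate 1, which leaves 5 and 6, and without 1K-cell replicate 2, which leaves 6 at the 1K-cell stage. With DESeq2, 2 members were lower in total between the 64-cell and the 1K-cell stage, against 0. In the sections DESeq2 called 1 lower and 1 higher in A at the 4-cell stage and 2 lower and 1 higher at the 1K-cell stage. In B it called 2 lower and 1 higher at the 4-cell stage and 1 lower and 1 higher at the 1K-cell stage. In C it called 3 higher at the 4-cell stage, and in D it called 4 lower at the 4-cell stage and 2 higher at the 1K-cell stage. The shares of all transcripts that DESeq2 called are not given, so nothing is read from its counts. With the replicate block, the calls at the 1K-cell stage in A (LRP1) and in D (SULF1 lower and HMMR higher) fell to 0, 0 and 0. The calls in totals that were lost with it were of transcripts of KIAA1324L and SULF1. All these transcripts kept their direction. With counts summed per symbol, 2 symbols were lower in A, and 0 lower and 0 higher in D at the 1K-cell stage. Leaving out each embryo gave 0 to 1 calls in A (higher at the 4-cell stage and lower at the 1K-cell stage), 0 to 1 lower and 0 to 2 higher in D, and 3 to 3 higher in C, all at the 1K-cell stage unless stated. The correlations of same-numbered embryos were between -0.143 and 0.127, against -0.122 to 0.138 for different numbers, and 5 of the 12 embryos correlated best with their own number. They were 0.127, 0.108 and 0.065 between the 1-cell and 64-cell stages, and -0.076, -0.117 and -0.143 between the 4-cell and 64-cell stages. Whether the numbers mark a batch was not tested. Over the 6 lists, DESeq2 called 27, 17 and 20 transcripts vegetal at the 1-cell, 4-cell and 1K-cell stages. Leaving out each embryo gave 3 to 6, 1 to 4, 3 to 7 and 3 to 6 at the 4 stages, against 11, 8, 10 and 12 in edgeR. The share of all transcripts called vegetal is given only for edgeR at the 1-cell stage. No enrichment of the lists is therefore read from these counts. In the totals of the lists at the 4-cell stage, 7 were lower from sections A, B, C and E, and 3 and 4 higher with plain sums of counts and DESeq2, with 0 to 5 lower and 1 to 2 higher without each embryo, against 4 and 1. At the 1K-cell stage 18 were lower with DESeq2 and 5 with the replicate block, and 4, 1, 4 and 1 higher with plain sums of counts, sections A, B, C and E, DESeq2 and the replicate block, with 1 to 9 lower and 1 to 2 higher without each embryo, against 9 and 2. Taken over A, B, C and E alone, the median share in E was 94.6%, 86.4%, 85.2% and 82.2% from the 1-cell to the 1K-cell stage, which leaves out D by construction. Apart from these values, the cause was not tested. No value of a single transcript changed sign, and 84 of 554 lost their call, 71 of them when an embryo was left out.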

Other observations

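A class of other transcripts at the vegetal pole was described after the data were seen. It holds the 435 transcripts that are no members, had at least 70% of their level in E at the 1-cell stage and a mean of at least 100 normalized counts there. Their median level in E at the 1K-cell stage was 25.9% of the egg level, with quartiles of 17.7% and 32.8%. The 8 leading transcripts of the vegetal symbols had a median of 22.8%, with quartiles of 19.3% and 36.4%. The median share in E at the 1K-cell stage was 50.7% in the class and 61.9% in the 8 leading transcripts. The total per embryo was called lower at the 1K-cell than at the 1-cell stage for 155 of the 435 (35.6%). It was called lower for 4 of the 8 leading transcripts and 3 of the 5 leading germ-line transcripts. The class and the members were chosen by their level in E, so these values describe them and were not tested. In E of 4-cell replicate 2, 353 of the 435 transcripts (81.1%) were at the lowest of the 3 embryos of that stage.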
